A study of Mus musculus with 12 samples.

Results

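The collagen chain genes, chosen as all genes whose mouse symbol has the form Col, number, a, number, were followed in kidney tubular epithelial cells treated with TGFβ and with an inhibitor of nicotinamide N-methyltransferase (NNMT). The table of 55487 genes held 44 of them, and 23 passed the filter on low counts and were tested. The cells were im-TEC, a conditionally immortalised mouse line that grows at 33 °C with interferon gamma. Cells of all 4 groups had spent 7 days at 37 °C without interferon gamma, which lowers the SV40 large T antigen that immortalises them, and all were collected after 48 h. The groups, of 3 libraries each, were a control, TGFβ at 10 ng/mL, NNMTi at 50 µM, and the pair of agents together at those doses, called the combined group. NNMTi stands for 5-amino-1-methylquinolinium, a small molecule that blocks NNMT. The labels give no difference in line or genotype between the groups.

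Collagens are secreted proteins in which chains with a repeated Gly-X-Y sequence wind around each other in a helix. Fibrillar collagens such as types I and V form the fibres of scar tissue, collagen IV forms the sheet of basement membranes under tubules and glomeruli, and FACIT collagens attach to the surface of fibrils. TGFβ is a cytokine known for raising fibrillar collagen expression in kidney fibrosis, and NNMT is an enzyme that methylates nicotinamide.

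Expression is given as CPM, that is, reads of a gene over the composition-corrected library total, and, because each read marks a transcript's 3′ end, it does not scale with transcript length. Differences are given as log2 fold change ± SE with edgeR's quasi-likelihood test and a Benjamini-Hochberg adjusted p over all 13581 genes tested, and a change was called at an adjusted p under 0.05. Totals ran from 2584117 to 11866903 counts per library, and both ends belong to the TGFβ group (replicates 3 and 2). TGFβ replicate 2 also stood apart from its fellow replicates across genes, as given in the processing section. Nothing states that replicates were separate cultures, so p-values measure the spread between these samples, and fewer cells making a transcript cannot be told apart from less transcript per cell. Of 15 tubule markers, Pax8, Pax2 and Cdh16 were detected in all groups while Epcam, Slc34a1 and Umod were at 0 throughout. The summed tubule list was 1880 to 2040 CPM in the controls, 703 to 1100 in the TGFβ libraries, 1910 to 1970 under the inhibitor and 685 to 716 in the combined libraries. Aqp1, a water channel of the proximal tubule, had a mean of 1010 CPM in the control and 25.2 CPM with TGFβ and so made up most of the difference in that sum. Of the 9 tubule markers tested, 2 rose and 4 fell with TGFβ, where 19.4% of all genes tested rose and 17.1% fell. The 2 rises are a share close to that over all genes. The keratin Krt8 had a mean of 62.6 CPM in the control, 288 with TGFβ, 27.3 under the inhibitor and 195 in the combined group. Of 14 fibroblast and mural markers, 8 were at 0 in the controls and 8 with TGFβ, among them Pdgfra, Lum, Dpt and Pi16. The summed fibroblast list was 42.6 to 49.5 CPM in the controls, 37.3 to 42.1 with TGFβ, 32 to 38.4 under the inhibitor and 25.3 to 35.5 in the combined group. Twist1 and Twist2 gave most of that sum. Pdgfrb, a receptor of mural cells and fibroblasts, had a mean of 0.513 CPM in the control, 5.75 with TGFβ, 0.366 under the inhibitor and 2.26 in the combined group, the same order of the TGFβ and combined groups as for Col1a1. Of the 3 markers of this list tested, 1 rose and 1 fell with TGFβ, against the same 19.4% and 17.1%, and 3 are too few to set against those shares. The 6 leukocyte markers summed to 74.1 to 79.1 CPM in the control, 43.5 to 58.5 with TGFβ, 59.9 to 71.3 under the inhibitor and 25.8 to 31.6 in the combined group, with Adgre1 at 0. Csf1r alone gave most of that sum, with means of 68.6, 44.3, 60.8 and 23.2 CPM in the same order of groups. Ptprc had group means of 0.0336 to 0.377 CPM. These lists differ between the groups compared below, and their part in the collagen results was not tested.

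Promoters are shown for some of the chains on which the results turn. Col4a4 was chosen because its start lies 72 bases from that of Col4a3 on the other strand of chromosome 1, and Col4a2 because its start lies 21 bases from that of Col4a1 on chromosome 8 (GENCODE M21, GRCm38). Col4a1 and Col4a2 overlap on opposite strands at their starts. The bases before the Col4a2 start in its window, with the CAGAC at -228, therefore lie within the Col4a1 gene. Col1a2, Col27a1 and Col8a1 rose with TGFβ and were lower once the inhibitor was added, and Col5a1 rose with no difference called on adding it. RefSeq (GRCm38.p6) gave windows of 250 bases before to 50 after the start for 35 of the 44 chains, and Col1a1 is not among them. Capitals mark CAGAC (the SMAD box), GGGCGG (the Sp1 box) and CCAAT on either strand.
Col4a4, chr1:82586800-82587099, minus strand: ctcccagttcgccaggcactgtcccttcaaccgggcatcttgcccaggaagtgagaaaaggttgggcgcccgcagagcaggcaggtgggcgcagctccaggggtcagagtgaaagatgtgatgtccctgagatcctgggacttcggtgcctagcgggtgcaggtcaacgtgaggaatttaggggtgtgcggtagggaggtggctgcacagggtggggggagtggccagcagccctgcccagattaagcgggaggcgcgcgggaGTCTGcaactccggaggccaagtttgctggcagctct
Col4a2, chr8:11312555-11312854, plus strand: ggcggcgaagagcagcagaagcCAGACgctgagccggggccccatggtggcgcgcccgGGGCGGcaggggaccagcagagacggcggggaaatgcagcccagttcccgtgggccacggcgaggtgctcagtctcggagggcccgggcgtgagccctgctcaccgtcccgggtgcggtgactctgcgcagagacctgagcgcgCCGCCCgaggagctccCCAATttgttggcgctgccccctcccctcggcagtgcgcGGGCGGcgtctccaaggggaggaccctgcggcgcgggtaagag
Col5a1, chr2:27886175-27886474, plus strand: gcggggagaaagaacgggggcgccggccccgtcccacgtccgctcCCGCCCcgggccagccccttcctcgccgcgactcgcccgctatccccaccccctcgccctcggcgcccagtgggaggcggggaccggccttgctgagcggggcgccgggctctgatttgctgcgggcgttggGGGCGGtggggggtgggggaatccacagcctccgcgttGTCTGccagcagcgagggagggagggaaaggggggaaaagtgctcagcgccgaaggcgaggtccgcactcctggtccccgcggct
Col1a2, chr6:4505368-4505667, plus strand: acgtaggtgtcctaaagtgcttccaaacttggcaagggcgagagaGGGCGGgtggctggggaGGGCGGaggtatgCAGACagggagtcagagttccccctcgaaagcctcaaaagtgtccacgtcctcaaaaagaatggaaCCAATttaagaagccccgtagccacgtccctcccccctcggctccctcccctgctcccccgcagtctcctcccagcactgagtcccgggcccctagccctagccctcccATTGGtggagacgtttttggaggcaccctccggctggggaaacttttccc
Col27a1, chr4:63215162-63215461, plus strand: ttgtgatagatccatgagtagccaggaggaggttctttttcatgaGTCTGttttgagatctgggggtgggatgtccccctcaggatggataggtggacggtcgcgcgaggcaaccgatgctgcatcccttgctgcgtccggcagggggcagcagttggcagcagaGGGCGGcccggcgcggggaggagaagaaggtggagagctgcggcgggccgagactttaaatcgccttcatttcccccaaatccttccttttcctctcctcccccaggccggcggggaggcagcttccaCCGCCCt
Col8a1, chr16:57754688-57754987, minus strand: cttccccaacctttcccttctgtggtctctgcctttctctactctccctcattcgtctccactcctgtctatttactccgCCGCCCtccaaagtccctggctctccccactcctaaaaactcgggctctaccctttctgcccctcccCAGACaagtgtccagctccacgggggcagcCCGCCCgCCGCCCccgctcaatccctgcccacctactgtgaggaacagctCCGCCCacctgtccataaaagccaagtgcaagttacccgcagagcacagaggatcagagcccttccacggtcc
Each of these windows held 1 CAGAC, at +14 in Col4a4, -228 in Col4a2, -35 in Col5a1, -175 in Col1a2, -205 in Col27a1 and -103 in Col8a1. CAGAC occurred in 49.6% of all 32851 promoter windows and in 20 of the 38 collagen windows. A match is a description of the window and not a site. GGGCGG was found 4 times in the Col8a1 window, 3 times in that of Col4a2, 2 times in those of Col5a1, Col1a2 and Col27a1, and not in that of Col4a4. It occurred in 35.7% of all windows and in 23 of the 38 collagen windows. CCAAT was found in 37.4% of all windows and 13 collagen windows, and GGAATG (bound by TEAD factors) in 14.7% and 5. TATAAA was found in 13.6% and 5, and the CArG box of serum response factor in 1.63% and 1. GGGCGG and CCAAT did not overlap CAGAC in the windows shown.

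With TGFβ, 14 of the 23 tested chains rose and 3 fell. Over all genes tested, 19.4% rose and 17.1% fell, and the median log2 change was 1.28 over the collagen chains and 0.02 over all genes. Some chains passed the filter through their TGFβ libraries, such as Col5a3 (2 counts in the control, 77 with TGFβ) and Col1a2 (11 and 184). Such chains could hardly be called as falls, yet they enter the count and the median, which was 1.25 without Col5a3. With the inhibitor alone, 2 chains rose and 5 fell (2.47% and 5.8% of all genes), with a median of -0.34 over the chains and 0.01 over all genes. Leaving out any of the 6 libraries of that comparison lowered the 7 calls to 3 or 4. Scaled by library size alone, 1 chain rose and 5 fell with the inhibitor, as did 204 and 1036 of all genes against 335 and 788 as reported.

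When the inhibitor was added to TGFβ, 9 chains were lower and 1 was higher than with TGFβ alone (6.97% and 3.45% of all genes), with a median of -0.59 over the chains and -0.02 over all genes. Chains that passed the filter through the TGFβ libraries, Col5a3 and Col1a2 among them, were more open to a fall here. Without Col5a3 the median was -0.44. TGFβ still acted in the presence of the inhibitor. In the combined group against the inhibitor group, 13 chains rose and 7 fell (18% and 18.3% of all genes), with a median of 1 over the chains and 0 over all genes. Col5a3 had no count with the inhibitor, and the median was also 1 with that chain at its bound. In the combined group against the control, 9 chains rose and 7 fell (15.3% and 16.5% of all genes), with a median of 0.68 over the chains and 0.03 over all genes. Scaled by library size alone, that comparison shifted by -0.116 on the log2 scale at the median gene and called 1404 genes higher and 2899 lower, against 2077 and 2244 as reported, while the collagen counts were 9 and 7 again.

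The interaction, which asks whether the TGFβ response differed with and without the inhibitor, was called for 2 chains, Col1a1 and Col27a1, both with a smaller response under the inhibitor, against 1.11% of all genes in either direction. The median interaction was -0.07 over the chains and -0.02 over all genes. After thinning all libraries to the depth of the shallowest, 9 chains were called with TGFβ, 2 with the inhibitor, 3 for the inhibitor added to TGFβ and none for the interaction. The interaction count was 1 without control replicate 2 or 3, inhibitor replicate 2 or 3 or combined replicate 2 or 3, and 3 without TGFβ replicate 2, where Col12a1 joined. The comparisons that share libraries are given side by side and not set against each other as independent evidence.

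**Figure D1:**
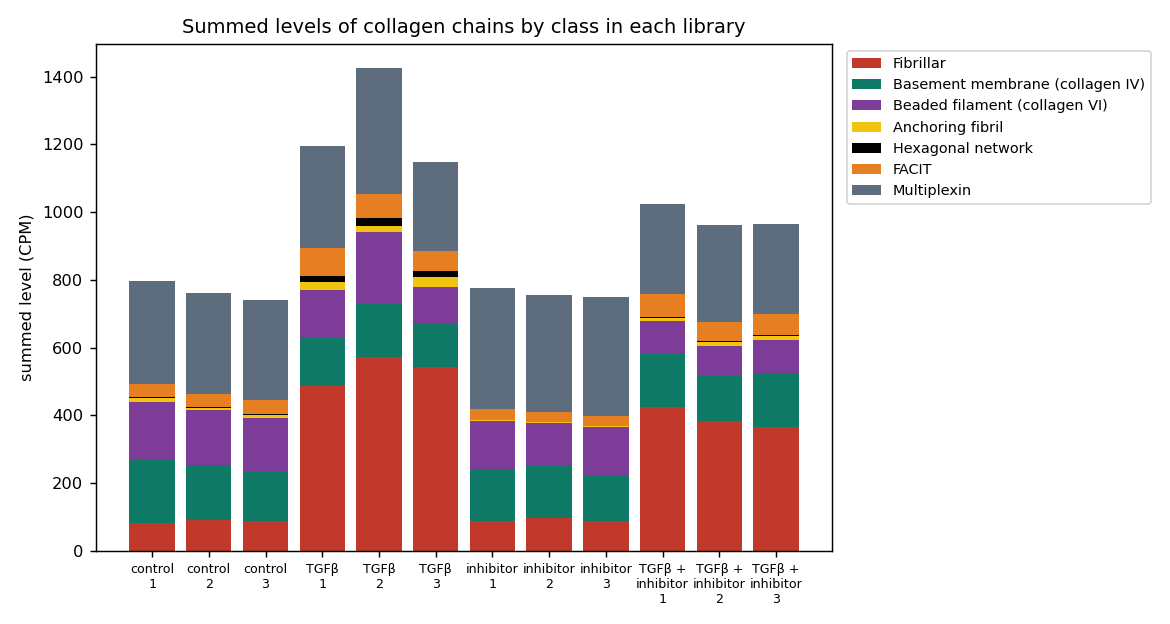
Summed level (CPM, vertical axis) of the collagen chains by class in each of the 12 libraries (horizontal axis). The red fibrillar part lies between 81.1 and 96.9 CPM in the control and inhibitor libraries and between 366 and 573 CPM in the libraries with TGFβ.

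Fibrillar chains made up a larger share of the collagen counts in all libraries with TGFβ than in any without it. All chains together were 767 ± 28.2 CPM in the control (SD, n = 3), 1260 ± 148 with TGFβ, 760 ± 14 under the inhibitor and 984 ± 35.9 in the combined group. Fibrillar chains held 11.4 ± 1.03% of the collagen counts in the control, 42.7 ± 3.9% with TGFβ, 11.9 ± 0.847% under the inhibitor and 39.7 ± 1.74% in the combined group. The libraries with and without TGFβ did not overlap in the summed fibrillar level. Within the fibrillar sum, the level of the combined group (366 to 424 CPM) was below that of TGFβ alone (487 to 573 CPM), and Col5a1 alone made up 306 to 348 CPM of it.

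Fibrillar chains, which assemble into the cross-striated fibres of scar and cartilage, included the chains with the largest rises with TGFβ, Col1a1 and Col1a2 among them. Of 8 tested, 7 rose and 1 fell, with a median log2 change of 2.76. Among those 7, Col1a2 and Col5a3, as given above, and also Col2a1 and Col11a1 passed the filter through libraries with TGFβ. Col2a1 had 23 counts in the control and 181 with TGFβ, and Col11a1 had 9 and 31. Such chains could hardly be called as falls, yet they enter the count and the median of this class. Col1a1, the major chain of type I collagen, stood at 6.25, 4.36 and 3.02 CPM in the control libraries and at 144, 183 and 167 CPM with TGFβ. It stood at 2.2, 5.21 and 3.39 CPM with the inhibitor and at 45.1, 37 and 33.1 CPM in the combined group. The 3 TGFβ libraries lay above all others, the combined libraries lay between, and the control and inhibitor libraries overlapped. Col1a1 rose 36.4-fold with TGFβ (log2 5.19 ± 0.25, adjusted p = 1.6e-10) and 10.7-fold with TGFβ in the presence of the inhibitor (3.42 ± 0.25, adjusted p = 2.22e-08). Adding the inhibitor to TGFβ lowered it 4.28-fold (-2.1 ± 0.2, adjusted p = 6.52e-06), whereas the inhibitor alone gave -0.34 ± 0.3 (adjusted p = 0.586, interval -0.93 to 0.26). The difference between the TGFβ responses was -1.76 ± 0.37 (adjusted p = 0.0291). That last call was lost without control replicate 2 (adjusted p = 0.0977) or 3 (0.0656), inhibitor replicate 2 (0.126) or 3 (0.0925), or combined replicate 2 (0.0735) or 3 (0.0778).

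Col27a1, a fibrillar chain known from cartilage, followed the same order at lower fold. Its levels were 6.92, 10.7 and 11.1 CPM in the control and 46.3, 41.5 and 65.4 CPM with TGFβ. They were 12.4, 13 and 11.1 CPM with the inhibitor and 23, 17.5 and 17.2 CPM in the combined group. Every combined library was below every TGFβ library and above every control and inhibitor library. Col27a1 rose 5.22-fold with TGFβ (2.38 ± 0.2, adjusted p = 3.51e-08) and 1.58-fold with TGFβ in the presence of the inhibitor (0.66 ± 0.2, adjusted p = 0.0148). The latter call was lost without inhibitor replicate 3 (adjusted p = 0.0613) or combined replicate 1 (0.093). The combined group was 2.59-fold below TGFβ alone (-1.37 ± 0.19, adjusted p = 0.000143), and the difference between the responses was -1.72 ± 0.28 (adjusted p = 0.00329), which was called whichever library was left out and had an adjusted p of 0.0839 after thinning to the shallowest library.

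Col5a1, which starts type V collagen and nucleates type I fibrils, was the most abundant fibrillar chain and behaved otherwise. It stood at 63.8, 71.9 and 69.5 CPM in the control and at 274, 324 and 291 CPM with TGFβ. With the inhibitor it stood at 62.5, 69.9 and 67 CPM, and in the combined group at 348, 322 and 306 CPM. The libraries fell into a low pair of groups without TGFβ and a high pair with it, and within each pair the groups overlapped. Col5a1 rose 4.33-fold with TGFβ (2.12 ± 0.1, adjusted p = 1.86e-11) and 4.89-fold with TGFβ in the presence of the inhibitor (2.29 ± 0.1, adjusted p = 4.03e-12). The inhibitor added to TGFβ gave 0.13 ± 0.1 (adjusted p = 0.415), with an interval from -0.05 to 0.32, so a fall of the size seen for Col1a1 lay outside it. The combined mean was 110% of the TGFβ mean for Col5a1, 23.3% for Col1a1 and 37.7% for Col27a1.

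**Figure D2:**
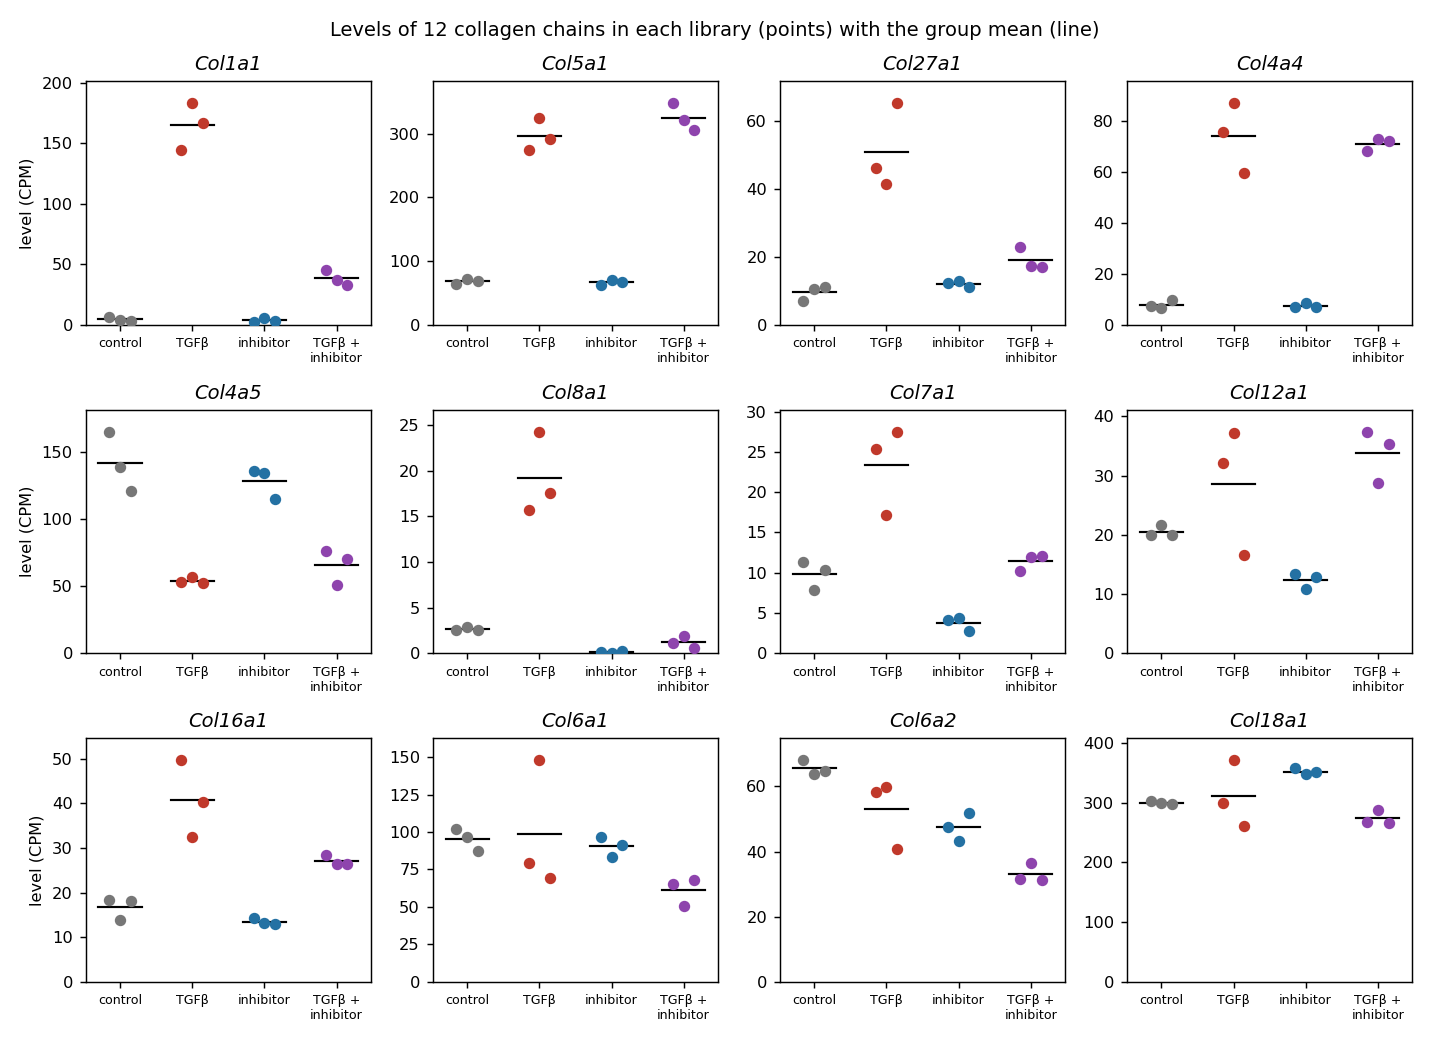
Level (CPM, vertical axis, from 0) of 12 collagen chains in each library (points) with the group mean (line), for control, TGFβ, inhibitor and the combined group. Col1a1 (144 to 183 CPM with TGFβ) and Col8a1 (15.7 to 24.3 CPM) lie lower in the combined group, while Col5a1 and Col4a4 overlap the libraries of TGFβ alone.

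Col1a2, the partner of Col1a1 in type I collagen, was 0.408 ± 0.134 CPM in the control, 7.62 ± 1 with TGFβ, 0.0367 ± 0.0636 under the inhibitor and 1.19 ± 0.691 in the combined group (SD, n = 3). It rose 18.4-fold with TGFβ (4.2 ± 0.49, adjusted p = 1.92e-06) and was 6.52-fold lower in the combined group than with TGFβ alone (-2.7 ± 0.43, adjusted p = 0.000425). With the inhibitor alone it had 1 count against 11 in the control, a ratio 10.8-fold lower with a counting interval of 1.57 to 466 (adjusted p = 0.08). Its response to TGFβ under the inhibitor, 29 counts against 1, had a ratio of 30.8 with an interval of 5.11 to 1260 (adjusted p = 0.000396), and without inhibitor replicate 1, which holds that count, the fitted fold moved from 22.7 to 80.7. That fold was 15.1 with voom, and 5.48 (adjusted p = 0.264) after thinning to the shallowest library. The difference between the combined group and TGFβ alone also lost its call after thinning (adjusted p = 0.0643).

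Col2a1, the main chain of cartilage collagen, was 0.862 ± 0.244 CPM in the control, 7.55 ± 0.725 with TGFβ, 0.113 ± 0.11 under the inhibitor and 1.54 ± 0.429 in the combined group. It rose 8.81-fold with TGFβ (3.14 ± 0.4, adjusted p = 6.47e-06), and the combined group was 4.97-fold below TGFβ alone (-2.31 ± 0.38, adjusted p = 0.000648). The inhibitor alone lowered it from 23 counts to 3, a ratio 7.54-fold lower with an interval of 2.28 to 39.2 (adjusted p = 0.0185). That call was lost without control replicate 1 or 2 or inhibitor replicate 2 or 3 (adjusted p from 0.0538 to 0.0757), and the fitted fold moved from 6.82 to 12.2 without inhibitor replicate 1. Against the inhibitor group the combined group had 38 counts to 3, a ratio of 13.5 with an interval of 4.27 to 68.2 (adjusted p = 0.000223), and the fitted fold moved from 12.1 to 21.6 without inhibitor replicate 1. Thinning to the shallowest library gave 6.18-fold for this comparison (adjusted p = 0.0914). It gave an adjusted p of 0.121 for the combined group against TGFβ alone and 0.304 for the inhibitor alone.

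Col5a3, a further chain of type V collagen, had 2 counts in the control, 77 with TGFβ, none under the inhibitor and 9 in the combined group. The TGFβ to control ratio was 45.1 with an interval of 12.1 to 379 (adjusted p = 0.000213). It rests on control replicate 3, which holds both control counts, and without it the fitted fold moved from 36.8 to 216. The combined group was 8.53-fold below TGFβ alone (-3.09 ± 0.7, adjusted p = 0.0102), a call lost without combined replicate 1 (adjusted p = 0.0632) or 2 (0.0623) and 24.7-fold without combined replicate 3. Against the inhibitor group it was at least 3.19-fold higher at a floor of 3 counts over the group (interval from 2.1, adjusted p = 0.0362), a call lost without any inhibitor library (adjusted p from 0.0791 to 0.0821) or combined replicate 3 (0.2).

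The type XI chains, which form thin cartilage fibrils, moved apart. Col11a1 was 0.334 ± 0.387 CPM in the control, 1.19 ± 0.381 with TGFβ, 0.149 ± 0.0616 under the inhibitor and 1.31 ± 0.378 in the combined group. It rose with TGFβ (1.91 ± 0.68, adjusted p = 0.0352), although control and TGFβ libraries overlapped, and in the presence of the inhibitor (3.01 ± 0.77, adjusted p = 0.00472). The first call was lost without control replicate 2 (adjusted p = 0.14) or 3 (0.164) or TGFβ replicate 1 (0.0814) or 2 (0.125), and the fold moved from 3.75 to 10.4 without control replicate 1. Col11a2 went the other way, from 2.77 ± 0.866 CPM in the control to 1.15 ± 0.504 with TGFβ, 7.96 ± 0.935 under the inhibitor and 3.4 ± 0.906 in the combined group. Col11a2 fell with TGFβ (-1.16 ± 0.39, adjusted p = 0.0262), rose with the inhibitor (1.51 ± 0.31, adjusted p = 0.00466) and was higher in the combined group than with TGFβ alone (1.44 ± 0.39, adjusted p = 0.0227). Its fall with TGFβ was lost without control replicate 2 (adjusted p = 0.055) or 3 (0.13) or TGFβ replicate 2 (0.114) or 3 (0.0504), and the last call without TGFβ replicate 2 (0.0824) or combined replicate 1 (0.0886) or 3 (0.056). The rise with the inhibitor was called whichever library was left out and had an adjusted p of 0.545 after thinning to the shallowest library.

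Some partner chains were scarce. Col5a2, which with Col5a1 makes up most type V collagen, had 23 counts in all 12 libraries, 19 of them with TGFβ. Col3a1, the type III chain of reticular fibres, had 9 counts, 8 of them with TGFβ, and Col24a1 had none. A count of 0 in a library allows up to 3 counts, which corresponds to 0.266 to 1.15 CPM, and such limits and the intervals above cover counting error only.

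**Figure D3:**
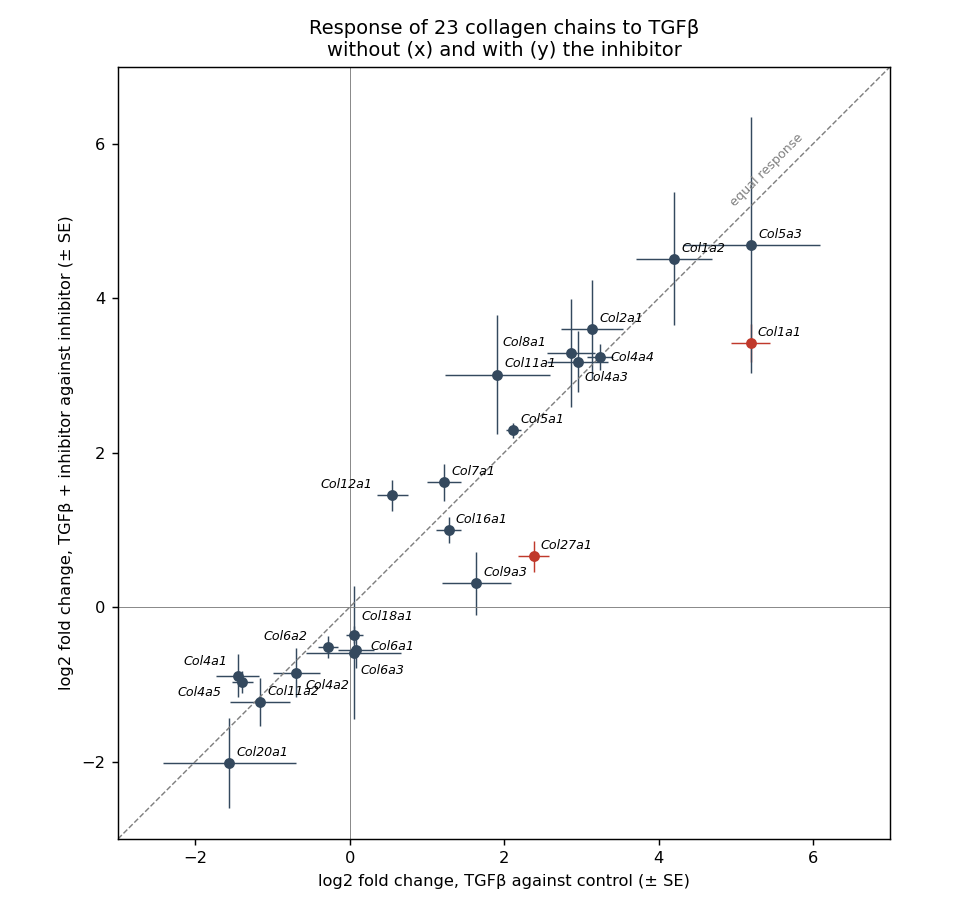
Log2 fold change with TGFβ against control (horizontal axis) and of the combined group against the inhibitor group (vertical axis) for the 23 tested chains, each with its SE. The axes share no library, the dashed line marks equal responses, and red marks Col1a1 and Col27a1, the chains with a called interaction, which lie below it.

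Collagen IV chains changed in opposite directions with TGFβ, and no difference was called when the inhibitor was added. Of 5 tested, Col4a3 and Col4a4 rose and Col4a1 and Col4a5 fell with TGFβ. With the inhibitor, alone or added to TGFβ, none of the 5 was called, while 1 and 0 of them had an unadjusted p under 0.05 and DESeq2 called none. The 1 was Col4a1 with the inhibitor alone (-0.71 ± 0.26, adjusted p = 0.0983, and 0.013 with voom or 0.0246 with edgeR on these 6 libraries alone). Col4a1 and Col4a2 build the collagen IV of all basement membranes, whereas Col4a3, Col4a4 and Col4a5 build the network of the glomerulus and of some tubules, and mutations in the latter chains cause Alport syndrome.

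Col4a4 stood at 7.37, 6.54 and 9.78 CPM in the control and 75.6, 87 and 59.7 CPM with TGFβ. It stood at 6.83, 8.75 and 6.99 CPM with the inhibitor and 68.3, 72.8 and 72 CPM in the combined group. All libraries with TGFβ were above all libraries without it, and the inhibitor groups overlapped their counterparts. It rose 9.44-fold with TGFβ (3.24 ± 0.17, adjusted p = 6.48e-11) and 9.44-fold in the presence of the inhibitor (3.24 ± 0.17, adjusted p = 4.12e-11), with an interval for the difference of -0.41 to 0.41. Its head-to-head neighbour Col4a3 was 0.894 ± 0.495 CPM in the control, 6.9 ± 1.04 with TGFβ, 0.79 ± 0.303 under the inhibitor and 7.3 ± 1.63 in the combined group. Col4a3 rose 7.71-fold with TGFβ (2.95 ± 0.39, adjusted p = 8.01e-06) and 9.09-fold in the presence of the inhibitor (3.18 ± 0.39, adjusted p = 2.98e-06). Both Col4a3 calls were lost after thinning to the shallowest library, at 4.06-fold (adjusted p = 0.101) and 4.59-fold (0.0808). The inhibitor added to TGFβ gave 0.07 ± 0.31 for Col4a3 (interval -0.54 to 0.68) and -0.08 ± 0.14 for Col4a4 (interval -0.36 to 0.2). At the end of Col4a3 lies C430014B12Rik on the other strand, with 115 counts in all, and without a stated strand setting their reads cannot be told apart.

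Col4a5, the most abundant collagen IV chain of the control, stood at 165, 139 and 121 CPM in the control and at 52.9, 56.8 and 52.4 CPM with TGFβ. With the inhibitor it stood at 136, 134 and 115 CPM, and in the combined group at 75.8, 50.6 and 70.1 CPM. All libraries with TGFβ were below all libraries without it. It fell 2.62-fold with TGFβ (-1.39 ± 0.14, adjusted p = 4.95e-07) and 1.96-fold in the presence of the inhibitor (-0.97 ± 0.14, adjusted p = 2.3e-05). The inhibitor added to TGFβ gave 0.27 ± 0.14 (adjusted p = 0.251), and 0.46 with an adjusted p of 0.0453 without combined replicate 2. A processed pseudogene on the same strand, Gm15268, overlaps Col4a5 away from the end of Col4a5 and had 1044 counts in all. The division of reads between them was not tested and is uncertain.

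Col4a1 was 8.31 ± 1.28 CPM in the control, 2.95 ± 0.757 with TGFβ, 5.07 ± 0.799 under the inhibitor and 2.74 ± 0.499 in the combined group, and it fell 2.73-fold with TGFβ (-1.45 ± 0.28, adjusted p = 0.000463). Col4a1 lost this call after thinning to the shallowest library (2.09-fold, adjusted p = 0.315). Its neighbour Col4a2 was 5.72 ± 0.472, 3.83 ± 1.37, 4.18 ± 1.12 and 2.33 ± 0.461 CPM in the same order of groups. Col4a2 with TGFβ gave -0.69 ± 0.31 (adjusted p = 0.0917), and -0.89 with an adjusted p of 0.0386 without TGFβ replicate 3. In the combined group both were below the control, Col4a1 by -1.61 ± 0.27 (adjusted p = 0.000162) and Col4a2 by -1.3 ± 0.31 (adjusted p = 0.00349). Against the inhibitor group Col4a1 fell by 0.89 ± 0.28 (adjusted p = 0.0188) and Col4a2 by 0.85 ± 0.32 (adjusted p = 0.0452). The Col4a1 call was lost without inhibitor or combined replicate 1 or 2 (adjusted p from 0.0605 to 0.0701), and the Col4a2 call without inhibitor replicate 2 or 3 or any combined library (from 0.052 to 0.221).

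The third head-to-head pair has its starts 1309 bases apart on chromosome X. It joins Col4a5 to Col4a6, which had 45 counts in all and was not tested. Col4a5 held 85.6 ± 3.21% of collagen IV counts in the control and 38.1 ± 2.67% with TGFβ, and Col4a4 held 4.87 ± 1.52% and 51.8 ± 4.37%. The inhibitor group had 87.7 ± 1.39% Col4a5 and 5.14 ± 0.617% Col4a4, and the combined group 43.6 ± 5.42% and 47.9 ± 5.7%. The collagen IV sum itself overlapped between groups, at 148 to 188 CPM in the control, 127 to 158 with TGFβ, 133 to 153 under the inhibitor and 134 to 158 in the combined group. Podocytes make these chains in the glomerulus, and of their markers Synpo had a mean of 218 CPM in the control, 323 with TGFβ, 158 under the inhibitor and 231 in the combined group. Podxl had means of 127, 77.1, 147 and 114 CPM and Wt1 of 0.858, 1.97, 0.559 and 0.606 CPM in the same order, and their part in the collagen IV results was not tested.

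**Figure D4:**
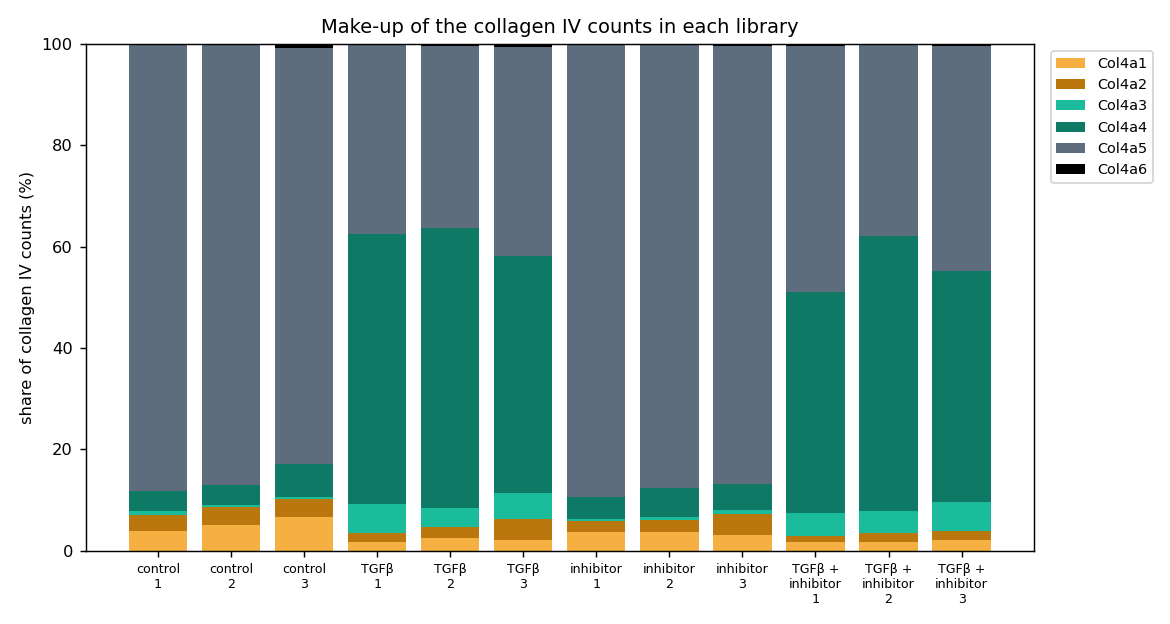
Share (%, vertical axis) of each chain in the collagen IV counts of each library (horizontal axis). Col4a5 holds 82% or more in the libraries without TGFβ and 48.5% or less in those with it, and Col4a4 holds 6.62% or less and 43.7% or more.

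Col8a1, a short chain of the hexagonal lattice of collagen VIII made by vessels and cornea, had the largest difference with the inhibitor among the chains tested. Its levels were 2.57, 2.91 and 2.52 CPM in the control and 15.7, 24.3 and 17.6 CPM with TGFβ. They were 0.11, 0 and 0.22 CPM with the inhibitor and 1.16, 1.91 and 0.53 CPM in the combined group. All combined libraries were below all control libraries, and all inhibitor libraries were below both. Col8a1 rose 7.25-fold with TGFβ (2.86 ± 0.31, adjusted p = 9.59e-07), and the combined group was 15.6-fold below TGFβ alone (-3.97 ± 0.35, adjusted p = 1.1e-06), at 6.24% of its level. With the inhibitor alone 3 counts stood against 72, a ratio 23.6-fold lower with a counting interval of 7.76 to 117 (adjusted p = 0.000108), and the fitted fold moved from 21.1 to 37.7 without inhibitor replicate 3. Differences with the inhibitor were thus called with and without TGFβ, and the interaction was 0.43 ± 0.7 (adjusted p = 0.886) with an interval of -0.94 to 1.8. The combined group rose from those 3 counts to 31, a ratio of 11 with an interval of 3.43 to 56.2 (adjusted p = 0.00107), and the fitted fold moved from 9.76 to 17.4 without inhibitor replicate 3. It was below the control by -1.11 ± 0.4 (adjusted p = 0.0389), a call lost without any control library or combined replicate 1 or 3 (adjusted p from 0.0719 to 0.144). The other hexagonal chains, Col8a2 and Col10a1 (the collagen of growth cartilage), had 0 and 2 counts in all.

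Endothelial cells are a known source of Col8a1, and their markers Cdh5, Kdr and Emcn were at 0 in every library. The summed list of 6 endothelial genes, nearly all of it Egfl7, was 5.08 to 6.7 CPM in the control, 1.15 to 2.69 with TGFβ, 3.96 to 4.91 under the inhibitor and 1.39 to 3.43 in the combined group, with 3, 3, 4 and 5 genes at 0.

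Col7a1, which forms the fibrils that anchor epithelia to the matrix beneath, also fell with the inhibitor in both settings. It stood at 11.3, 7.87 and 10.3 CPM in the control and 25.4, 17.1 and 27.5 CPM with TGFβ. It stood at 4.07, 4.38 and 2.73 CPM with the inhibitor and 10.2, 12 and 12.1 CPM in the combined group. The combined libraries overlapped the control libraries, the TGFβ libraries lay above them and the inhibitor libraries below. TGFβ raised it 2.33-fold (1.22 ± 0.22, adjusted p = 0.000233), the inhibitor lowered it 2.64-fold (-1.4 ± 0.25, adjusted p = 0.00116), and the combined group was 2-fold below TGFβ alone (-1 ± 0.22, adjusted p = 0.0064). The combined group against the control gave 0.22 ± 0.22 (adjusted p = 0.483, interval -0.21 to 0.65). The calls with TGFβ, with the inhibitor and for the combined group against TGFβ held whichever library was left out. After thinning to the shallowest library, the rise with TGFβ was 1.51-fold (adjusted p = 0.209). The combined group was then 1.6-fold below TGFβ alone (adjusted p = 0.336), so both of these calls were lost.

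**Figure D5:**
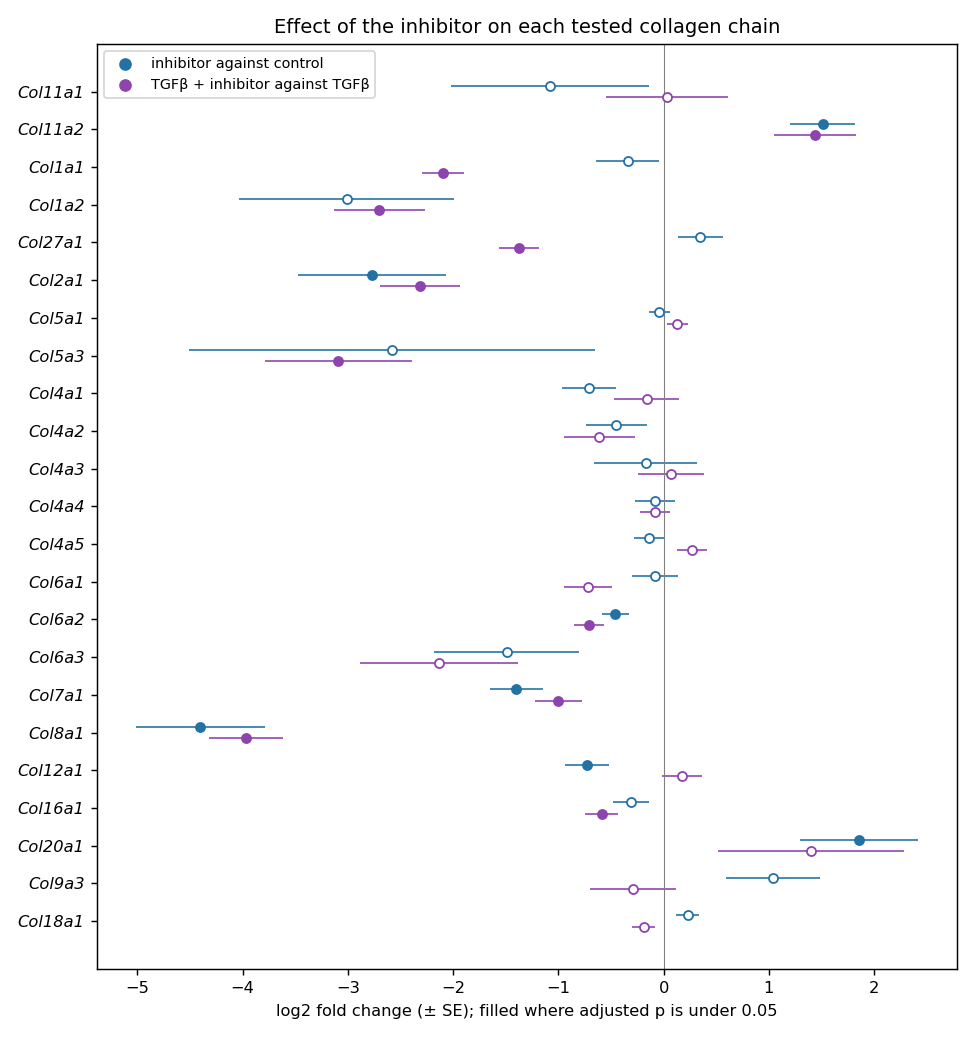
Log2 fold change with its SE (horizontal axis) for the inhibitor against control (blue) and the combined group against TGFβ (purple) in each of the 23 tested chains, filled where the adjusted p is under 0.05. Col8a1 and Col7a1 are filled on the left for both, Col1a1 and Col27a1 for the combined group alone, and Col5a1, Col4a3 and Col4a4 lie near 0 with open symbols.

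FACIT chains, which decorate fibrils and link them to other matrix, rose with TGFβ in 3 of 4 cases tested, with a median log2 change of 0.91. Col16a1 stood at 18.3, 13.8 and 18.2 CPM in the control and 49.7, 32.5 and 40.2 CPM with TGFβ. It stood at 14.3, 13.2 and 13 CPM with the inhibitor and 28.4, 26.3 and 26.3 CPM in the combined group. The combined libraries lay between the TGFβ and control libraries without overlap. It rose 2.42-fold with TGFβ (1.28 ± 0.16, adjusted p = 6.04e-06), and the combined group was 1.51-fold below TGFβ alone (-0.59 ± 0.16, adjusted p = 0.0225). The latter call was lost without TGFβ replicate 1 (adjusted p = 0.131) or combined replicate 1 (0.0671), 2 (0.0901) or 3 (0.101).

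Col12a1, a long FACIT chain of tendon and dense matrix, stood at 19.9, 21.7 and 20 CPM in the control and 32.1, 37.1 and 16.5 CPM with TGFβ. It stood at 13.3, 10.9 and 12.8 CPM with the inhibitor and 37.4, 28.7 and 35.3 CPM in the combined group. TGFβ replicate 3, the shallowest library, lay below the controls. Col12a1 rose with TGFβ (0.55 ± 0.2, adjusted p = 0.0378) and fell with the inhibitor (-0.73 ± 0.21, adjusted p = 0.036). The rise was lost without any control library or TGFβ replicate 1 or 2 (adjusted p from 0.0726 to 0.16) and the fall without any of its 6 libraries (from 0.0663 to 0.13). In the presence of the inhibitor TGFβ raised it 2.73-fold (1.45 ± 0.2, adjusted p = 1.88e-05). The interaction was 0.9 ± 0.28 (adjusted p = 0.176, and 0.0156 with voom), and 1.11 with an adjusted p of 0.0124 without TGFβ replicate 2.

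Col9a3, a cartilage FACIT chain, was 0.889 ± 0.211 CPM in the control, 3.01 ± 1.08 with TGFβ, 1.85 ± 0.483 under the inhibitor and 2.29 ± 0.598 in the combined group, and it rose with TGFβ (1.64 ± 0.45, adjusted p = 0.00807). The combined group was also above the control (1.35 ± 0.45, adjusted p = 0.0267), a call lost without control replicate 1 or 3 or combined replicate 2 or 3 (adjusted p from 0.0714 to 0.0943). Col20a1 was 0.397 ± 0.138 CPM in the control and 1.5 ± 0.134 with the inhibitor. It passed the filter through the inhibitor libraries, with 40 counts there, 11 in the control, 3 with TGFβ and 9 in the combined group. It could thus hardly be called as a fall with the inhibitor. It rose with the inhibitor (1.86 ± 0.56, adjusted p = 0.0474), a call lost without any of the 6 libraries (adjusted p from 0.123 to 0.203). In the combined group Col20a1 was 0.361 ± 0.123 CPM and below the inhibitor group (-2.02 ± 0.58, adjusted p = 0.0106), a call lost without combined replicate 2 (0.0604). The transcript BX649560.1 overlaps Col20a1 on the same strand, away from the end of Col20a1, and had 371 counts. Its part in the reads of Col20a1 was not tested, so these are uncertain.

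Collagen VI, which forms beaded filaments near basement membranes, showed no call with TGFβ among its 3 tested chains, while 1 had an unadjusted p under 0.05 and neither DESeq2 nor voom called any. Scaled by library size alone, Col6a2 was called lower with TGFβ (-0.37, adjusted p = 0.0287). Col6a2 stood at 68.1, 63.8 and 64.9 CPM in the control and 58.2, 59.8 and 40.9 CPM with TGFβ. It stood at 47.5, 43.2 and 51.9 CPM with the inhibitor and 31.6, 36.4 and 31.2 CPM in the combined group, which lay below every other library. Col6a2 was lower in the combined group than with TGFβ alone (-0.71 ± 0.14, adjusted p = 0.0027) and than in the control (-0.99 ± 0.13, adjusted p = 1.31e-05). It fell with the inhibitor alone (-0.46 ± 0.13, adjusted p = 0.0346), a call lost without any control library or inhibitor replicate 1 or 2 (adjusted p from 0.0837 to 0.136). With TGFβ alone Col6a2 gave -0.28 ± 0.13 (adjusted p = 0.109), and -0.36 with an adjusted p of 0.031 without TGFβ replicate 2.

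Col6a1 stood at 102, 96.8 and 87.4 CPM in the control and 79.2, 148 and 69.6 CPM with TGFβ, where replicate 2 stood apart. It stood at 96.5, 83 and 91.5 CPM with the inhibitor and 65.3, 50.8 and 68 CPM in the combined group. With TGFβ it gave 0.08 ± 0.23 (adjusted p = 0.821), and without TGFβ replicate 2 it gave -0.35 with an adjusted p of 0.0228. The combined group against TGFβ gave -0.72 ± 0.23 (adjusted p = 0.0672, and 0.0159 with DESeq2), and the adjusted p was 0.0381 without TGFβ replicate 1 and 0.0139 without replicate 3. Against the control the combined group was lower (-0.64 ± 0.23, adjusted p = 0.0491), a call lost without any of the 6 libraries (adjusted p from 0.0532 to 0.135). Col6a3 was 1.72 ± 0.557 CPM in the control and 0.389 ± 0.368 in the combined group (-2.08 ± 0.75, adjusted p = 0.0402), lost without control replicate 2 or 3 or combined replicate 2 or 3 (adjusted p from 0.0935 to 0.14) and with the fold moved from 4.23 to 8.89 without combined replicate 1. Col6a4, Col6a5 and Col6a6 had no count.

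Col18a1, a basement membrane multiplexin whose end gives endostatin, was the most abundant chain of the control. It stood at 302, 300 and 297 CPM in the control and 299, 371 and 261 CPM with TGFβ. It stood at 357, 347 and 351 CPM under the inhibitor and 268, 287 and 265 CPM in the combined group. The inhibitor libraries lay above the controls and the combined libraries below them. The differences from the control were 0.23 ± 0.11 with the inhibitor (adjusted p = 0.216, and 0.00956 with voom or 0.00296 with edgeR on these 6 libraries alone) and -0.13 ± 0.11 in the combined group (adjusted p = 0.368), and neither was called in the model of all groups. The combined group was below the inhibitor group (-0.36 ± 0.11, adjusted p = 0.0119). Slc19a1 ends over the end of Col18a1 on the other strand, with 991 counts, and reads of the pair cannot be told apart.

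The remaining chains were close to or at 0. Col15a1, the other multiplexin, had 45 counts, the FACIT chain Col22a1 had 17, and Col26a1 had 5, all in combined replicate 1. Col23a1, a membrane-spanning chain, had 1 count. The 13 chains without any count were Col24a1, Col6a4, Col6a5, Col6a6, Col8a2, Col14a1, Col19a1, Col9a1, Col9a2, Col13a1, Col17a1, Col25a1 and Col28a1, where 31857 of all 55487 genes had no count. They include Col14a1, a FACIT chain abundant in fibroblasts, and Col17a1, an epithelial hemidesmosome collagen.

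Among 38 genes of collagen synthesis and assembly, 31 were tested, and 18 rose and 5 fell with TGFβ, with a median log2 change of 0.39, where 19.4% of all genes rose and 17.1% fell with a median of 0.02. The 5 falls are a share close to that over all genes. The largest changes were rises of Lox (4.38 ± 0.76, adjusted p = 0.000164), Pcolce2 (3.68 ± 0.22, adjusted p = 2.45e-10), Creb3l1 (3.34 ± 0.67, adjusted p = 0.000647) and Loxl2 (3.03 ± 0.18, adjusted p = 3.07e-10). Lox and Loxl2 cross-link collagen, Pcolce2 enhances procollagen processing and Creb3l1 is a transcription factor of secretory cells. The fold of Lox moved from 20.9 to 229 without control replicate 1 and to 13.7 without control replicate 3, and that of Creb3l1 from 10.1 to 29.3 without control replicate 3. Lox (0.149 CPM in the control, 3.11 with TGFβ) and Creb3l1 (0.346 and 3.91 CPM) passed the filter through libraries with TGFβ. They could hardly be called as falls, yet they enter the count of rises and the median. The 5 falls, named after their values were seen, were of P3h2 (-1.6 ± 0.12, adjusted p = 4.42e-09), Pcolce (-1.47 ± 0.14, adjusted p = 1.27e-07), P4ha1 (-1.11 ± 0.09, adjusted p = 2.23e-08), Loxl4 (-0.67 ± 0.19, adjusted p = 0.0107) and P4ha2 (-0.61 ± 0.1, adjusted p = 0.000107). P3h2, P4ha1 and P4ha2 hydroxylate prolines of collagen chains.

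The inhibitor added to TGFβ changed 9 of these 31 genes, 4 higher and 5 lower, with a median of -0.05, where 3.45% of all genes were higher and 6.97% lower with a median of -0.02. The largest differences were Creb3l1 (-2.57 ± 0.62, adjusted p = 0.013), Loxl4 (-1.29 ± 0.21, adjusted p = 0.000739), Pcolce2 (-1.29 ± 0.18, adjusted p = 0.000183) and Loxl2 (-0.77 ± 0.16, adjusted p = 0.0042). The Creb3l1 call was lost without combined replicate 1 (adjusted p = 0.0544) or 3 (0.0751). Having passed the filter through the TGFβ libraries (3.91 CPM there, 0.619 in the combined group), Creb3l1 was more open to a fall here. With the inhibitor alone 2 rose and 2 fell, with a median of -0.08, where 2.47% of all genes rose and 5.8% fell, so the count of falls is close to the share over all genes. The largest changes were a fall of Loxl1, a cross-linker of elastic tissue (-0.98 ± 0.11, adjusted p = 1.14e-05), and a rise of P4ha2 (0.58 ± 0.1, adjusted p = 0.000767). Loxl1 had the only interaction called in the list (0.88 ± 0.15, adjusted p = 0.00497), a larger TGFβ response with the inhibitor, opposite in sign to Col1a1 and Col27a1. Mean levels of Loxl1 were 195 CPM in the control, 352 with TGFβ, 99 under the inhibitor and 329 in the combined group. The inhibitor added to TGFβ gave -0.1 ± 0.11 for Loxl1 (adjusted p = 0.59), so its only called difference with the inhibitor was the fall without TGFβ.

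Of 12 collagen receptors, 6 were tested, and 2 rose and 3 fell with TGFβ, with a median of 0.22, against 19.4% and 17.1% of all genes. Itga1, the chain that makes integrin a receptor for collagen IV, fell by 2.29 ± 0.1 on the log2 scale (adjusted p = 4.52e-12), from 207 to 42.4 CPM. Cd44, a hyaluronan receptor that also binds collagen, rose by 1.71 ± 0.12 with TGFβ (adjusted p = 3.2e-09) and fell with the inhibitor (-1.08 ± 0.12, adjusted p = 1.34e-05). Ddr1, a receptor kinase activated by collagen, fell by 0.99 ± 0.27 with TGFβ (adjusted p = 0.0146). Of 28 other proteins with Gly-X-Y stretches, 6 were tested, and 2 rose and 1 fell with TGFβ, with a median of 0.24, against the same 19.4% and 17.1%, so the count of falls is close to the share over all genes. Ccbe1, a secreted factor of lymphatic growth, rose by 3.12 ± 0.13 with TGFβ (adjusted p = 4.52e-12) and fell by 2.37 ± 0.15 with the inhibitor (adjusted p = 2.01e-08). C1qtnf3 rose by 4.9 ± 0.5 with TGFβ (adjusted p = 3.49e-07) and was higher still in the combined group than with TGFβ alone (1.86 ± 0.28, adjusted p = 0.000262).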

How the data were processed

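The authors deposited whole-number read counts per gene for 12 libraries. Per the labels, 100 ng of RNA went into QuantSeq 3′ FWD libraries, and the submitters' processing notes name STAR and HTSeq without versions and the human build GRCh38, although the identifiers are mouse genes; the strand setting is not given in the sources used here. Unassigned reads (21.1 to 26.8% without a feature, 0.613 to 0.802% ambiguous) were left out of library sizes. Symbols were matched for 55141 of 55487 genes.

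Genes were filtered with filterByExpr, scaled by TMM and tested with edgeR 4.0.16 (R 4.3.3, limma 3.58.1), by robust quasi-likelihood tests in 1 model of 4 group means, for 6 comparisons, with Benjamini-Hochberg adjustment over 13581 genes within each comparison. The procedure was tested on simulated data. Alternatives (other scaling, filters, DESeq2 1.42.0, voom weights, a replicate block, thinning to 2584117 counts, leaving out libraries) are given in the closing section. Leaving out TGFβ replicates 2 and 3 together was chosen after seeing the data.

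Collagen chains called in some comparison with a group mean of 10 CPM or more are given per library and the others by group mean or count. Of each accompanying list, up to 4 called genes with the largest change per comparison may be named; of 1 listed gene no match was found. Members and lists were chosen with earlier results of these data known. Ratios involving groups of 3 counts or fewer carry exact 95% counting intervals, and the floor was 3 counts. Replicates of a group differed by more than counting noise, so none was counted as a repeat. The chi-square per degree of freedom was 40.8 and 31.6 for the TGFβ pairs with replicate 2 and 6.24 for the pair without it. In the combined group it was 12.5 and 10.5 with replicate 2 and 4.54 without it. Medians of the chains use all 23 fitted values unless a chain is named as left out. A part of 1 marker list is not reported here.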

Additional observations from a re-analysis of the deposited data

Results flagged for a closer look

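The TGFβ response of Col1a1 differed with and without the inhibitor, by -1.76 on the log2 scale in a test of the interaction itself. It was 5.19 without and 3.42 with the inhibitor, and the interaction call was lost without any of 6 single libraries, as given above. The TGFβ response of Col27a1 also differed, by -1.72 (2.38 without and 0.66 with the inhibitor), in the same test.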

How the results depend on the processing

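The 72 single-chain calls kept their direction under every alternative run. Of 597 values under other settings, 538 stayed past the threshold and 59 did not, 34 of these after thinning, and of 444 with 1 library left out, 356 stayed and 88 did not. A filter at a mean of 5 CPM, which tests fewer chains, gave 9 calls in place of 17 for TGFβ against control, 4 of 7 for the inhibitor against control, 6 of 10 for the combined group against TGFβ, 11 of 20 against the inhibitor and 10 of 16 against the control. Thinning every library to 2584117 counts, which leaves fewer counts per chain, gave 9, 2, 3, 7 and 6 in that order, and 0 interactions in place of 2. With 1 library left out, the counts ranged from 14 to 17, 3 to 4, 7 to 12, 17 to 18 and 11 to 14 in that order, and from 1 to 3 for the interaction. Without TGFβ replicates 2 and 3, where the lone TGFβ library is assumed to vary like the other groups, 14 chains were called for TGFβ against control and 10 for the combined group against TGFβ. Replicate numbers did not pair the libraries (correlations of deviations from -0.08 to 0.2 for the same number and -0.17 to 0.17 for different numbers). A replicate block gave 16, 6, 10, 20, 15 and 2 calls. At the shallowest depth, 1 count corresponds to 0.383 CPM, which limits chains near that level.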
